A study of Mus musculus with 38 samples.

Results

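Nucleotide, serine and one-carbon synthesis was examined through 37 enzyme genes, the rows of the expression table whose symbols are in a fixed list of these enzymes, out of 21705 genes in all. The list follows the chemistry from ribose to deoxynucleotide and falls into 9 roles, which are the synthesis of phosphoribosyl pyrophosphate (PRPP), the synthesis of inosine monophosphate (IMP), the conversion of IMP to AMP and GMP, pyrimidine synthesis, folate one-carbon transfer, serine synthesis, deoxynucleotide supply, the nucleoside diphosphate kinases and base or nucleoside salvage.

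Purine synthesis builds a base step by step on PRPP, and pyrimidine synthesis builds the ring first and then joins it to PRPP. Both need nitrogen donors, and purines and thymidylate also need one-carbon units carried on folate, which serine hydroxymethyltransferases take from serine. MYC is a transcription factor known to bind many genes of these pathways at E-box sequences, and dividing cells need their products to copy DNA.

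The series holds poly(A) RNA-seq of 38 mouse libraries in 10 groups. There were 6 groups of cultured tumour cells with 4 libraries each, 3 groups of primary kidney tumours with 3 libraries each, and 1 group of 5 normal kidneys. All tumours and lines carried a doxycycline (Dox) inducible Tet-O-Myc transgene driven by rtTA under the kidney-specific KspCad promoter. Values are the deposited read estimates per gene, scaled so that the upper quartile of a library is 1000, and are called units here.

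MYC animals carried the transgenes alone (MYC+). VM animals in addition lost Vhl in the kidney (Vhl-/-; MYC +) through tamoxifen-induced KspCad-CreERT2, and VIM animals also lacked Ink4a/Arf in the germline (Ink-/-/Arf-/-). Tumours were labelled as maintained on Dox, and kidneys as wild type given vehicle. The cells were the lines MYC-2983, VM-3055 and VIM-3039, 1 line for each genotype, plated either with Dox (MYC transgene on) or without it (withdrawn) and collected the next day. The labels give no ages. Because each genotype was 1 line, the line and the genotype cannot be told apart, and the 4 libraries of a cell group measure spread within a line. MYC tumour replicates 2 and 3 came from mouse 2983, whose tumour also gave the MYC-2983 line, and they were averaged as 1 animal in each test. The MYC tumour group thus held 2 animals in the tests. The titles name 2 kinds of kidney, B6 (replicates 1 and 3) and KT (replicates 2, 4 and 5).

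Estimated reads per library ranged from 8.22 M to 36.6 M (median 15.2 M). The lines differed in depth, with medians of 25.6 M with Dox and 24.8 M without in MYC-2983 cells. The medians were 14.9 M and 17.4 M in VM-3055 and 18.8 M and 14.3 M in VIM-3039 cells. The part of depth in differences between lines was not tested. Of the 37 genes, 36 lay above a floor of 3 reads in each library, the exception being Adssl1. Vhl averaged 451 units in MYC-2983 cells with Dox against 13.1 in the VM line and 12.7 in the VIM line. In tissue Vhl averaged 686 units in the kidneys, 499 in MYC tumours, 53.6 in VM tumours and 252 in VIM tumours, where it ranged from 219 to 312. Cdkn2a, the Ink4a/Arf gene, averaged 34.1 units in VIM-3039 against 5162 in VM-3055 cells without Dox. The Myc row averaged 676 units with Dox and 1831 without Dox in MYC-2983 cells, and was lower with Dox in the other lines as well, and reads of the transgene cannot be told apart in it. The renal epithelial markers Cdh16, Pax8, Pax2 and Epcam summed to 8358 to 17544 units in the tumours and to 18623 to 27256 in the kidneys.

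Promoters were searched because E-boxes are the sequences that MYC is known to bind. RefSeq (GRCm38.p6) gave a start-site window of 250 bases before to 50 after the start for 35 of the 37 genes, Pfas and Dhodh having no entry. The palindromic E-box CACGTG was present in 5 of these 35 genes (14.3%), against 8.09% of the 27025 genes in the RefSeq table. The E2F sequences TTTCCCGC and TTTGGCGC on either strand occurred in 2 genes, Prps2 and Ppat (5.71% against 1.8% of genes), and the ATF4 sequence TGATGNAA on either strand occurred in 1, Prps1 (2.86% against 4.51%). The 30 bases around 1 E-box of each gene are printed 5′ to 3′ with the E-box in capitals, and a match of letters is not a measured binding site. Nme1 had another E-box, at position -29 from a different start site, which is not printed.
Paics: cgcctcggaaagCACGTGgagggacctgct
Atic: gaggaggggcgggacctcggggtCACGTGg
Impdh2: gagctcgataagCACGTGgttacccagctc
Tyms: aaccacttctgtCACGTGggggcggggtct
Nme1: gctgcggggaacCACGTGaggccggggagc
These stretches lie in GRCm38.p6 at chr5:76951087-76951116 (Paics, plus strand), chr1:71557126-71557155 (Atic, plus strand), chr9:108560314-108560343 (Impdh2, plus strand), chr5:30073669-30073698 (Tyms, minus strand) and chr11:93968273-93968302 (Nme1, minus strand). In the mm9 annotation the Paics stretch falls in an untranslated exon of Ppat, the neighbouring gene on the other strand, and the Nme1 stretch falls in an untranslated exon shared by Nme1 and Nme2. Each of the 5 stretches occurs once in mm9.

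The first comparison asked which of these enzymes changed with Dox, which turns on the MYC transgene, in cultured tumour cells. No line without the transgene was given Dox, so the drug and MYC cannot be told apart. A gene was taken to have passed when its limma adjusted p was under 0.05 over all genes tested and its difference exceeded 1 on the log2 scale. With Dox, 11 of the 37 genes passed as higher in MYC-2983 cells, where 4.49% of 15104 genes tested did so. The VM-3055 line had 21 of 37 (background 5.92% of 14319 genes) and the VIM-3039 line 19 of 37 (background 7.67% of 13998 genes). As lower, 0 genes passed in MYC-2983 cells (background 15%), and the single gene that passed in each other line was Adssl1 (background 18.9% for VM-3055, 16.6% for VIM-3039). At an adjusted p under 0.05 whatever the size, 33, 35 and 35 genes were higher, against 31.5%, 26.1% and 31.1% of all genes, and 2 in each line were lower, against 44%, 47.7% and 44.2%. The Dox libraries of a gene lay wholly above its libraries without Dox for 32 genes in MYC-2983 cells (background 29.5%), 35 in VM-3055 (background 23.8%) and 34 in VIM-3039 (background 28.9%), and wholly below them for 1, 2 and 2 genes (background 41%, 44.4% and 41.1%).

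The median difference of the 37 genes was 0.63, 1.16 and 1.10 on the log2 scale, taking the lines in the order MYC-2983, VM-3055, VIM-3039, and that of all genes tested was -0.13, -0.26 and -0.15. Rescaling the libraries by trimmed means (TMM) moved the latter medians to -0.01, -0.04 and -0.01. Other gene lists moved with the same contrast. The 10 listed genes of cycling cells, among them Mki67 and Top2a, summed to 43693 to 45211 units with Dox and 26313 to 28041 without Dox in MYC-2983 cells. The same sums were 39894 to 41392 against 19335 to 22202 in VM-3055 and 33273 to 33575 against 14957 to 15651 in VIM-3039 cells. All 10 were higher with Dox at an adjusted p under 0.05 in each line, and 0, 5 and 7 of them passed with the size threshold. The 4 renal epithelial markers Cdh16, Pax8, Pax2 and Epcam had lower sums with Dox, at 11039 to 12567 against 16339 to 17312 units in MYC-2983, 5721 to 5844 against 13023 to 13431 in VM-3055 and 5793 to 5943 against 9894 to 10630 in VIM-3039 cells. The sums of 7 fibroblast markers, among them Col1a1 and Col1a2, were 296 to 309 against 991 to 1179.8, 87.4 to 111 against 629.6 to 710.1, and 25 to 35.4 against 139.8 to 180.0 units in the same order. Those of 7 leukocyte markers were 218 to 255 against 443 to 474, 363 to 408 against 946 to 1013, and 287 to 315 against 371 to 446. The 5 endothelial markers summed to at most 12.5 units in a cell library. The part of these lists in the enzyme changes was not tested.

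**Figure D1:**
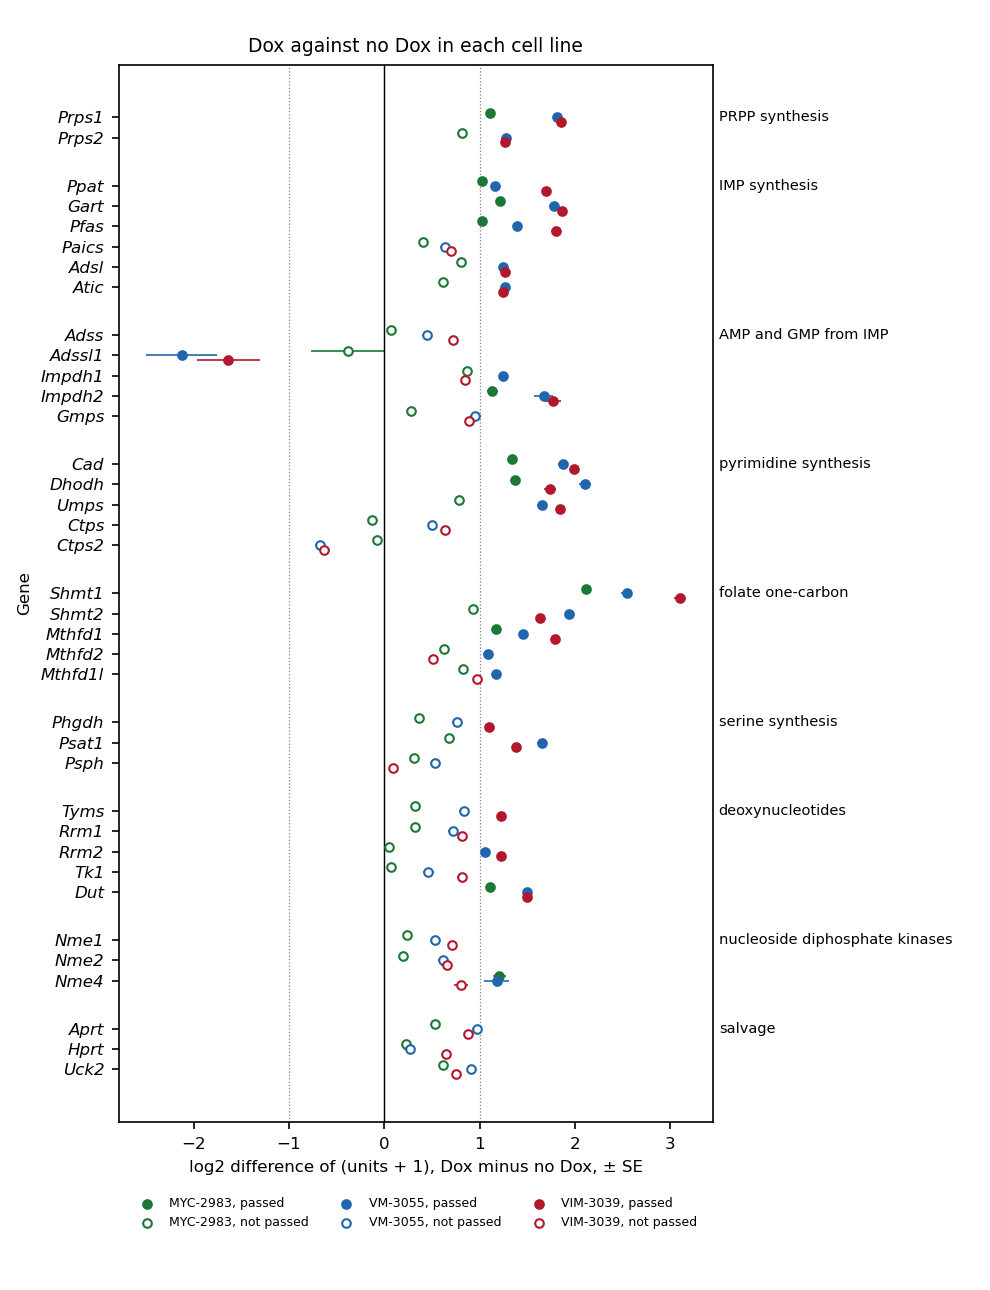
Difference with against without Dox for the 37 enzyme genes (log2 units, x axis; bars are SE, n = 4 and 4 libraries) in the 3 lines, grouped by role. Filled points passed the test, dotted lines mark 1 and -1, and Shmt1 lies furthest right in each line at 2.11, 2.54 and 3.1.

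PRPP synthetases make the activated ribose that both purine and pyrimidine synthesis consume. Both rose in the VM and VIM lines, and Prps1 (chrX:136991152-137010679, plus strand, mm9) also rose in MYC-2983 cells. Prps1 measured 995, 882, 924 and 912 units without Dox and 1960.0, 2021, 2029 and 2008 with Dox in MYC-2983 cells. In VM-3055 cells Prps1 measured 613, 639, 602 and 583 without Dox and 2109.6, 2045, 2209 and 2194 with Dox. In VIM-3039 cells Prps1 measured 569, 621, 539 and 572 without Dox and 2111, 2125, 2066 and 1995 with Dox. The libraries with Dox lay above those without in each line, and the log2 differences were 1.11 ± 0.034, 1.81 ± 0.047 and 1.85 ± 0.042 (SE; largest adjusted p 1.46e-15). Prps2 measured 882, 909, 883 and 839 units without Dox and 1577, 1526, 1583 and 1514 with Dox in MYC-2983 cells. In VM-3055 cells Prps2 measured 526, 548, 491 and 561 without Dox and 1303, 1259, 1293 and 1281 with Dox. In VIM-3039 cells Prps2 measured 572, 649.9, 631 and 569.9 without Dox and 1443, 1465, 1506 and 1420.2 with Dox. Its Dox libraries were also the higher ones in each line, with log2 differences of 0.82 ± 0.031, 1.27 ± 0.051 and 1.27 ± 0.045, and MYC-2983 fell short of the size threshold (largest adjusted p 2.02e-13). The coding sequences of Prps1 and Prps2 are 79.9% identical with no shared run over 20 bases.

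IMP synthesis takes PRPP to the first complete purine in a chain run by Ppat, the committed step, Gart, Pfas, Paics, Adsl and Atic. Of these 6 genes, 3 passed as higher in MYC-2983 cells and 5 in each of the other lines, and Paics was the one that passed in none of them. Gart measured 3577, 3373, 3600.1 and 3655 units without Dox and 8263, 8047, 8219 and 8527 with Dox in MYC-2983 cells. In VM-3055 cells Gart measured 1534, 1631, 1555 and 1639 without Dox and 5678, 5369, 5376 and 5339 with Dox. In VIM-3039 cells Gart measured 1968, 1928, 1920.4 and 1878 without Dox and 6895, 7038, 7093 and 7070.4 with Dox. Gart (chr16:91621431-91647197, minus strand, mm9), a trifunctional enzyme that uses formyl folate, thus separated fully by Dox in the 3 lines, by 1.22 ± 0.029, 1.77 ± 0.042 and 1.87 ± 0.029 on the log2 scale (largest adjusted p 5.26e-16). Pfas measured 1493, 1413, 1539 and 1536 units without Dox and 2990.4, 3009, 3059 and 3097 with Dox in MYC-2983 cells. In VM-3055 cells Pfas measured 618, 607, 624 and 598 without Dox and 1743, 1579, 1575 and 1557 with Dox. In VIM-3039 cells Pfas measured 621, 546, 516 and 630.4 without Dox and 2079, 2029.8, 1902 and 2036 with Dox. Pfas, which adds a nitrogen from glutamine, separated as well, by 1.02 ± 0.029, 1.4 ± 0.048 and 1.8 ± 0.053 (largest adjusted p 3.38e-14). In MYC-2983 cells its call rested on the replicate without Dox numbered 2, and without that library the difference was 0.997. Ppat differed by 1.03 ± 0.031, 1.16 ± 0.044 and 1.7 ± 0.036, Adsl by 0.80 ± 0.023, 1.24 ± 0.045 and 1.27 ± 0.036 and Atic by 0.62 ± 0.027, 1.27 ± 0.042 and 1.25 ± 0.028 in the same order of lines. Paics differed by 0.40 ± 0.025, 0.63 ± 0.045 and 0.70 ± 0.032, below the size threshold in each line although its adjusted p was at most 5.51e-10. Ppat and Paics overlap at their 5′ ends on opposite strands in the mm9 annotation, and whether the counting used strand is not given in the sources used here.

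From IMP, Impdh1, Impdh2 and Gmps lead to GMP, and Adss and Adssl1 make the precursor of AMP. Impdh2, the inosine monophosphate dehydrogenase known from dividing cells, was the gene of this role that passed as higher in the 3 lines. Impdh2 measured 177, 170.4, 164 and 179.5 units without Dox and 374, 367, 379 and 401 with Dox in MYC-2983 cells. In VM-3055 cells Impdh2 measured 105, 131, 92.2 and 112 without Dox and 359.9, 341, 362 and 338 with Dox. In VIM-3039 cells Impdh2 measured 94, 109, 90.8 and 99.5 without Dox and 326, 359, 314 and 354 with Dox. Its groups with and without Dox did not overlap in a line, and the differences were 1.13 ± 0.054, 1.67 ± 0.099 and 1.77 ± 0.085 (largest adjusted p 3.9e-11). Impdh1 differed by 0.86 ± 0.026, 1.24 ± 0.042 and 0.85 ± 0.036, passing in VM-3055 cells. Gmps differed by 0.28 ± 0.027, 0.96 ± 0.057 and 0.89 ± 0.032 and Adss by 0.07 ± 0.024, 0.44 ± 0.047 and 0.72 ± 0.038, neither past the size threshold. Adssl1, the muscle form of adenylosuccinate synthetase, was near the floor. Adssl1 measured 1.31, 2.63, 1.74 and 1.63 units without Dox and 2.8, 1.63, 1.08 and 0 with Dox in MYC-2983 cells. In VM-3055 cells Adssl1 measured 9.7, 12, 8.53 and 13.7 without Dox and 0.739, 1.7, 5.09 and 0.877 with Dox. In VIM-3039 cells Adssl1 measured 25.6, 11.1, 9.18 and 16.6 without Dox and 4.16, 2.77, 3.28 and 6.46 with Dox. In the VM and VIM lines the Dox libraries lay below the others, and Adssl1 passed as lower at -2.13 ± 0.37 (adjusted p 5.72e-05) and -1.64 ± 0.33 (adjusted p 0.000141). In the MYC-2983 and VM-3055 Dox groups 3 of 4 libraries were at or under 3 reads, so these fitted values depend on the pseudocount, and with a pseudocount of 10 neither call held (-0.80 and -0.82).

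Pyrimidine synthesis runs through Cad, which carries out its opening steps, the mitochondrial Dhodh and the terminal Umps, and Ctps and Ctps2 then make CTP. Cad and Dhodh passed as higher in the 3 lines. Cad measured 2169, 2208, 2300.3 and 2387 units without Dox and 5538, 5569, 5877 and 5905 with Dox in MYC-2983 cells. In VM-3055 cells Cad measured 2497, 2599.8, 2425 and 2649 without Dox and 9865, 9749.8, 8887 and 8711 with Dox. In VIM-3039 cells Cad measured 1729, 1601, 1701 and 1786 without Dox and 6675, 6669, 6542 and 7099 with Dox. With Dox, Cad (chr5:31357153-31380852, plus strand, mm9) was 2.52-fold, 3.65-fold and 3.96-fold higher, which is 1.34 ± 0.032, 1.87 ± 0.05 and 1.98 ± 0.036 on the log2 scale (largest adjusted p 1.34e-15). Dhodh measured 429.8, 461, 458 and 467 units without Dox and 1209, 1126, 1137 and 1225 with Dox in MYC-2983 cells. In VM-3055 cells Dhodh measured 157, 168, 169.8 and 153 without Dox and 739, 688, 689 and 689 with Dox. In VIM-3039 cells Dhodh measured 269, 283, 241 and 231 without Dox and 859, 826, 877 and 849.9 with Dox. These values did not overlap in any of the 3 lines, and Dhodh differed by 1.37 ± 0.038, 2.11 ± 0.065 and 1.74 ± 0.06 (largest adjusted p 8.03e-15). Umps measured 2358, 2221, 2352 and 2335 units without Dox and 4029, 3911, 3910.1 and 4159.9 with Dox in MYC-2983 cells. In VM-3055 cells Umps measured 859, 969.8, 950.4 and 841 without Dox and 2840.4, 2859.6, 2975 and 2704 with Dox. In VIM-3039 cells Umps measured 884, 804, 866 and 845 without Dox and 3006, 3089.7, 3119 and 3009 with Dox. Umps differed by 0.79 ± 0.028, 1.65 ± 0.052 and 1.85 ± 0.035, without overlap, and passed in the VM and VIM lines (adjusted p 1.12e-14 and 1.09e-20). Neither CTP synthase passed. Ctps differed by -0.13 ± 0.024, 0.50 ± 0.044 and 0.64 ± 0.031 and Ctps2 by -0.08 ± 0.034, -0.67 ± 0.049 and -0.63 ± 0.055. Under TMM scaling the values in MYC-2983 cells turned from negative to 0.003 for Ctps and 0.051 for Ctps2, so no direction is given for them in that line, while Ctps2 stayed negative in the VM (-0.44) and VIM lines (-0.47).

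Among the folate one-carbon enzymes, Shmt1 gave the largest difference of the 37 genes in each line. Shmt1 and Shmt2, the cytosolic and mitochondrial serine hydroxymethyltransferases, transfer a carbon from serine to folate, and Mthfd1, Mthfd2 and Mthfd1l interconvert the folate-bound carbon. Shmt1 measured 665, 615, 614 and 594 units without Dox and 2638, 2643, 2733 and 2737 with Dox in MYC-2983 cells. In VM-3055 cells Shmt1 measured 258, 235, 226 and 245 without Dox and 1448, 1395, 1405 and 1373 with Dox. In VIM-3039 cells Shmt1 measured 152, 167, 198 and 178 without Dox and 1560.4, 1485, 1479.7 and 1426 with Dox. Shmt1 (chr11:60601606-60625220, minus strand, mm9) was 4.32-fold higher with Dox in MYC-2983, 5.82-fold in VM-3055 and 8.56-fold in VIM-3039 cells, or 2.11 ± 0.034, 2.54 ± 0.055 and 3.1 ± 0.064 on the log2 scale (largest adjusted p 2.21e-16). Shmt2 measured 3710.0, 3548, 3693 and 3701 units without Dox and 6755, 6854, 7190.0 and 7188 with Dox in MYC-2983 cells. In VM-3055 cells Shmt2 measured 1194, 1262, 1307 and 1214 without Dox and 5165, 4640.0, 4654 and 4655 with Dox. In VIM-3039 cells Shmt2 measured 1749, 1750.3, 1687 and 1676 without Dox and 5449, 5184, 5309 and 5355 with Dox. Shmt2 differed by 0.93 ± 0.028, 1.94 ± 0.047 and 1.63 ± 0.031, with no overlap, and passed in the latter pair of lines (adjusted p 6.06e-16 and 7.64e-21). Under TMM scaling Shmt2 passed in MYC-2983 cells also, at 1.07. Mthfd1, the cytosolic enzyme, passed in the 3 lines at 1.17 ± 0.027, 1.45 ± 0.045 and 1.79 ± 0.035. Mthfd2 and Mthfd1l, its mitochondrial counterparts, differed by 0.63 ± 0.024, 1.08 ± 0.044 and 0.51 ± 0.032 and by 0.82 ± 0.028, 1.17 ± 0.041 and 0.97 ± 0.035, each passing in VM-3055 cells.

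Serine synthesis from glucose runs from Phgdh through Psat1 to Psph. Psat1 measured 5202, 5028, 5080.4 and 5018 units without Dox and 8233, 8154, 8091 and 8154 with Dox in MYC-2983 cells. In VM-3055 cells Psat1 measured 1810.4, 1886, 1805 and 1853 without Dox and 5931, 5339, 5930.4 and 5913 with Dox. In VIM-3039 cells Psat1 measured 2389.6, 2405, 2350.0 and 2324 without Dox and 6378, 6176, 6184 and 6020.2 with Dox. Psat1 was higher with Dox without overlap in each line, by 0.68 ± 0.024, 1.65 ± 0.045 and 1.39 ± 0.03, and passed in the VM and VIM lines (adjusted p 1.62e-15 and 4.9e-20). Phgdh measured 9835, 9785, 10021 and 10099.6 units without Dox and 12427, 12603, 12952 and 13209 with Dox in MYC-2983 cells. In VM-3055 cells Phgdh measured 4421, 4539, 4995 and 4855 without Dox and 8561, 7839, 7486 and 7984 with Dox. In VIM-3039 cells Phgdh measured 2316, 2203, 2279.6 and 2426 without Dox and 5131, 4944, 4793 and 4852 with Dox. Phgdh (chr3:98117093-98143913, minus strand, mm9) also separated in each line, but by 0.36 ± 0.027, 0.76 ± 0.052 and 1.1 ± 0.034, which passed in VIM-3039 cells alone (adjusted p 1.62e-17). Psph differed by 0.31 ± 0.03, 0.53 ± 0.05 and 0.10 ± 0.042 and passed in no line. Of 8 listed genes for ATF4 and its targets, a regulator known for inducing serine synthesis, 0 passed as higher with Dox in any line and 1, 1 and 4 passed as lower, in the order of lines used above (background 15%, 18.9% and 16.6% lower). Under the size threshold, Asns, the asparagine synthetase on that list, averaged 2907 units without and 3956 with Dox in MYC-2983, 1810.5 and 2978 in VM-3055 and 2905 and 3544 in VIM-3039 cells. Atf4 itself averaged 4275 units without and 5259 with Dox in VM-3055 cells, and 7555 and 7072 in MYC-2983 and 5661 and 5191 in VIM-3039 cells.

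Deoxynucleotide supply uses the ribonucleotide reductase subunits Rrm1 and Rrm2, the thymidylate synthase Tyms, the thymidine kinase Tk1 and the dUTPase Dut. Dut measured 929.8, 907, 970.5 and 979 units without Dox and 1950.0, 2091, 2103 and 2049 with Dox in MYC-2983 cells. In VM-3055 cells Dut measured 945, 976, 1038 and 951 without Dox and 2795, 2672, 2778 and 2823 with Dox. In VIM-3039 cells Dut measured 1015, 1002, 1029 and 1036 without Dox and 2996, 2865, 2756 and 2919 with Dox. Dut differed by 1.11 ± 0.032, 1.5 ± 0.044 and 1.5 ± 0.034 with no overlap and passed in the 3 lines (largest adjusted p 5.03e-15). Rrm2 measured 4667, 4334, 4674 and 4553 units without Dox and 4765, 4639, 4516 and 4916 with Dox in MYC-2983 cells. In VM-3055 cells Rrm2 measured 2257, 2437, 2257 and 2230.2 without Dox and 4652, 4717, 4742 and 4971 with Dox. In VIM-3039 cells Rrm2 measured 2917, 2847, 2874 and 2713 without Dox and 6565, 6831, 6682 and 6506 with Dox. Rrm2 overlapped between the conditions in MYC-2983 cells, 0.05 ± 0.031 (adjusted p 0.174, 95% interval -0.02 to 0.11), and differed without overlap by 1.06 ± 0.043 in the VM line and 1.23 ± 0.031 in the VIM line. Tyms measured 986, 956, 1013 and 1016 units without Dox and 1269.6, 1241, 1248 and 1215 with Dox in MYC-2983 cells. In VM-3055 cells Tyms measured 989, 1187, 1098 and 1025 without Dox and 1896, 1881, 1921 and 1945 with Dox. In VIM-3039 cells Tyms measured 530.5, 532, 557 and 540.0 without Dox and 1276, 1272, 1318 and 1197 with Dox. Tyms differed by 0.32 ± 0.03, 0.83 ± 0.053 and 1.23 ± 0.041 and passed in VIM-3039 cells, with no overlap in the 3 lines. Rrm1 (0.32, 0.72 and 0.81) and Tk1 (0.07, 0.46 and 0.81) stayed under the size threshold.

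Nucleoside diphosphate kinases balance the triphosphate pools, and Nme4 is the mitochondrial one. Nme4 measured 122, 127, 142 and 132 units without Dox and 291, 294, 319.7 and 309 with Dox in MYC-2983 cells. In VM-3055 cells Nme4 measured 48.5, 47.3, 57.4 and 50.9 without Dox and 114, 117, 98.5 and 140.4 with Dox. In VIM-3039 cells Nme4 measured 182, 172, 189 and 214 without Dox and 357, 309, 318 and 338 with Dox. Nme4 levels in VM-3055 cells were the lowest of the 3 lines, and the Dox differences were 1.21 ± 0.064, 1.18 ± 0.13 and 0.80 ± 0.078, of which those in MYC-2983 and VM-3055 cells passed. Nme1 measured 5525, 5382, 5668 and 5680.1 units without Dox and 6621, 6444, 6365 and 6754 with Dox in MYC-2983 cells. In VM-3055 cells Nme1 measured 3153, 3267, 3539 and 3112 without Dox and 4807, 4711, 4615 and 4761 with Dox. In VIM-3039 cells Nme1 measured 3383, 2978, 3252 and 3271 without Dox and 5524, 5426, 5219 and 4966 with Dox. Nme1 differed by 0.23 ± 0.027, 0.53 ± 0.046 and 0.71 ± 0.039, none past the size threshold. Nme2 measured 6584, 6379, 6314 and 6692 units without Dox and 7259.8, 7253, 7421 and 7850.1 with Dox in MYC-2983 cells. In VM-3055 cells Nme2 measured 3367, 3548, 4004 and 3412 without Dox and 5719, 5419.6, 5138 and 5682 with Dox. In VIM-3039 cells Nme2 measured 4154, 3716, 4149 and 4266 without Dox and 7285, 6645, 6075 and 5689 with Dox. Nme2 differed by 0.20 ± 0.03, 0.62 ± 0.055 and 0.65 ± 0.056, also under it. The coding sequences of Nme1 and Nme2 are 93.7% identical with a shared run of 330 bases, because a long annotated Nme2 transcript reads through Nme1, so the split of reads between them is uncertain.

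Salvage enzymes recover bases and nucleosides, Aprt for adenine, Hprt for hypoxanthine and guanine, and Uck2 for uridine and cytidine. None of the 3 passed in a line. Aprt measured 2474, 2613, 2545 and 2511 units without Dox and 3657, 3545, 3688 and 3783 with Dox in MYC-2983 cells. In VM-3055 cells Aprt measured 1362, 1280.0, 1520.2 and 1297 without Dox and 2722, 2666, 2552 and 2737 with Dox. In VIM-3039 cells Aprt measured 1979.6, 1928, 1987 and 2007 without Dox and 3795, 3644, 3557 and 3538 with Dox. Aprt differed by 0.53 ± 0.027, 0.97 ± 0.053 and 0.88 ± 0.032, below the threshold of size but without overlap. Uck2 measured 1404, 1311, 1414 and 1388 units without Dox and 2145, 2025, 2219.7 and 2091 with Dox in MYC-2983 cells. In VM-3055 cells Uck2 measured 1012, 980.2, 975 and 1003 without Dox and 1855, 1926, 1858 and 1836 with Dox. In VIM-3039 cells Uck2 measured 1320.0, 1258, 1236 and 1249 without Dox and 2260.0, 2026, 2127 and 2145 with Dox. Uck2 differed by 0.62 ± 0.032, 0.91 ± 0.042 and 0.76 ± 0.037, also without overlap. Hprt measured 1953, 1934, 1922 and 1974 units without Dox and 2352, 2295, 2254 and 2233 with Dox in MYC-2983 cells. In VM-3055 cells Hprt measured 2867, 3307, 3066 and 2760.3 without Dox and 3522, 3432, 3650.3 and 3795 with Dox. In VIM-3039 cells Hprt measured 2382, 2368, 2448 and 2276 without Dox and 3859, 3789, 3791 and 3387 with Dox. Hprt, often used as a reference gene, gave 0.23 ± 0.026, 0.27 ± 0.054 and 0.64 ± 0.038, again with no overlap and with a largest adjusted p of 0.000248.

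**Figure D2:**
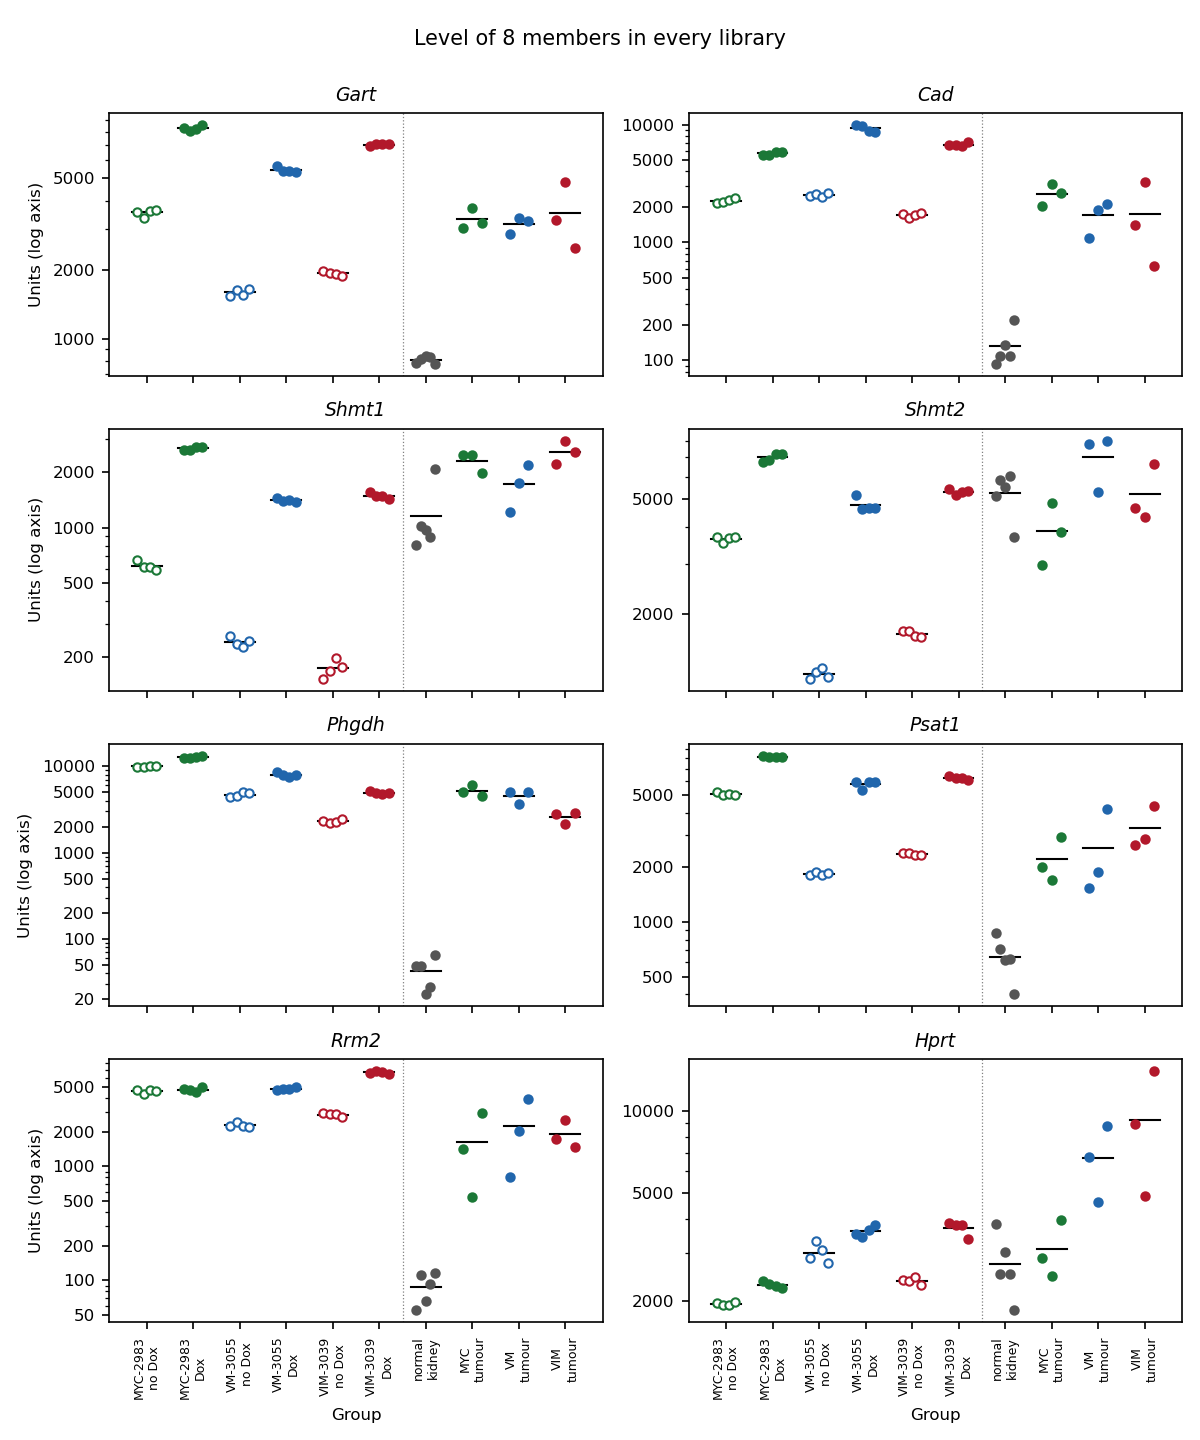
Units per library (log y axis) of Gart, Cad, Shmt1, Shmt2, Phgdh, Psat1, Rrm2 and Hprt in the 10 groups; points are libraries, bars are group means and open points are cells without Dox. Phgdh is lowest in the 5 kidneys, at 22.8 to 65.8 units, while Shmt1 is lowest in the VM and VIM lines without Dox.

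Whether the response to Dox differed between lines was tested as an interaction in 1 fit of the 6 cell groups. Of the 37 genes, the signed Dox difference was lowest in MYC-2983 cells for 31, in VIM-3039 for 4 and in VM-3055 for 2. The last were Adssl1 and Ctps2, with negative differences there. This split was not counted over all genes. Against MYC-2983, the VM-3055 response was higher at an adjusted p under 0.05 for 33 genes (background 17% of 16092 genes) and lower for 2 (background 28%). The VIM-3039 response was higher for 31 genes (background 21.7%) and lower for 4 (background 21%). Both tests use the same MYC-2983 libraries. With the size threshold, 2 genes passed as higher and 1 as lower in VM-3055 (background 3.2% and 5.33%), and 2 as higher and 0 as lower in VIM-3039 (background 4.46% and 4.34%). The median interaction of the 37 genes was 0.42 and 0.61, against -0.08 and 0.01 over all genes.

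The genes that passed were few. Rrm2 responded more in VM-3055 than in MYC-2983 cells by 1.01 ± 0.049 (adjusted p 4.48e-15), and more in VIM-3039 cells by 1.18 ± 0.049 (adjusted p 1.03e-16). Shmt2 responded more in VM-3055 cells by 1.01 ± 0.05 (adjusted p 5.03e-15). Both VM-3055 values sit at the size threshold. Rrm2 fell to between 0.988 and 1 when MYC-2983 Dox replicate 3, MYC-2983 no-Dox replicate 1 or 3, VM-3055 Dox replicate 4 or VM-3055 no-Dox replicate 4 was left out, and Shmt2 fell to as low as 0.969 when MYC-2983 Dox replicate 1 or 2, VM-3055 Dox replicate 1 or VM-3055 no-Dox replicate 1 or 4 was. Umps responded more in VIM-3039 cells by 1.06 ± 0.058 (adjusted p 2.97e-14). Adssl1 had a lower response in VM-3055 cells, at -1.74 ± 0.54 (adjusted p 0.00973), a value from libraries at a few reads that did not hold at a pseudocount of 0.1 (-1.62), at one of 10 (-0.74) or by voom (-1.67). Psat1 in VM-3055 (0.97 ± 0.043) and Shmt1 in VIM-3039 cells (0.99 ± 0.078) lay just under the size threshold. Between VIM-3039 and VM-3055 the interaction passed for 0 genes by limma and 0 by voom, which compares with backgrounds of 3.88% higher and 2.54% lower. At an adjusted p under 0.05, 13 were higher and 9 lower (background 24.3% and 11.3%). At an unadjusted p under 0.05, 14 and 9 were, and the share over all genes was not counted.

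The lines were next compared with each other under the same condition. With Dox the median difference from MYC-2983 over all genes tested was -0.19 in the VM line and -0.18 in the VIM line, and TMM scaling moved it to -0.05 and -0.04. That of the 37 genes moved from -0.24 to -0.08 and from -0.17 to -0.02. With Dox, VM-3055 differed from MYC-2983 in 1 of the 37 genes, lower (background 18.1% lower and 6.54% higher). This was Nme4, at -1.37 ± 0.094 (adjusted p 1.03e-08). VIM-3039 with Dox differed from MYC-2983 in Phgdh, lower, at -1.38 ± 0.03 (adjusted p 3.36e-14), and in Adssl1, higher by 1.23 ± 0.38 (adjusted p 0.01), against backgrounds of 18.3% lower and 5.66% higher. The Adssl1 groups overlapped at a few reads, and the call was lost at a pseudocount of 10 (0.32), with no filter on low genes and without MYC-2983 Dox replicate 4. VIM-3039 exceeded VM-3055 with Dox in Nme4, by 1.49 ± 0.097 (adjusted p 7.87e-10; background 9.69% higher and 9.45% lower).

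Without Dox more of the 37 genes passed between the lines than with Dox. VM-3055 was lower than MYC-2983 in 10 genes and higher in 1 (background 16.6% and 8.36%), and VIM-3039 was lower in 8 and higher in 1 (background 19.3% and 6.88%). The share lower in VIM-3039 was close to its background. The median of the 37 differences was -0.68 in both lines without Dox, and -0.24 and -0.17 with Dox. That of all genes tested was -0.10 and -0.20 without Dox, and -0.19 and -0.18 with Dox. The genes lower in VM-3055 cells without Dox were Shmt2 (-1.56 ± 0.038), Dhodh (-1.48 ± 0.061), Psat1 (-1.47 ± 0.033), Shmt1 (-1.37 ± 0.058), Umps (-1.36 ± 0.049), Nme4 (-1.34 ± 0.1), Pfas (-1.29 ± 0.041), Gart (-1.16 ± 0.038), Tk1 (-1.14 ± 0.051) and Phgdh (-1.08 ± 0.042). In VIM-3039 cells without Dox, Phgdh (-2.11 ± 0.029), Shmt1 (-1.84 ± 0.073), Umps (-1.45 ± 0.034), Tk1 (-1.43 ± 0.04), Adsl (-1.4 ± 0.029), Pfas (-1.37 ± 0.057), Psat1 (-1.1 ± 0.024) and Shmt2 (-1.09 ± 0.027) were lower. Adssl1 was the gene higher in both, at 8.53 to 13.7 units in VM-3055 and 9.18 to 25.6 in VIM-3039 against 1.31 to 2.63 in MYC-2983 cells, where 3 of 4 libraries lay at or under the floor of 3 reads, so the size of the fitted differences depends on the pseudocount. Against VM-3055, VIM-3039 cells without Dox were lower in Ppat (-1.01 ± 0.049) and Phgdh (-1.03 ± 0.047) and higher in Nme4 (1.87 ± 0.12). Both shares were under the backgrounds of 12.5% lower and 9.21% higher.

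**Figure D3:**
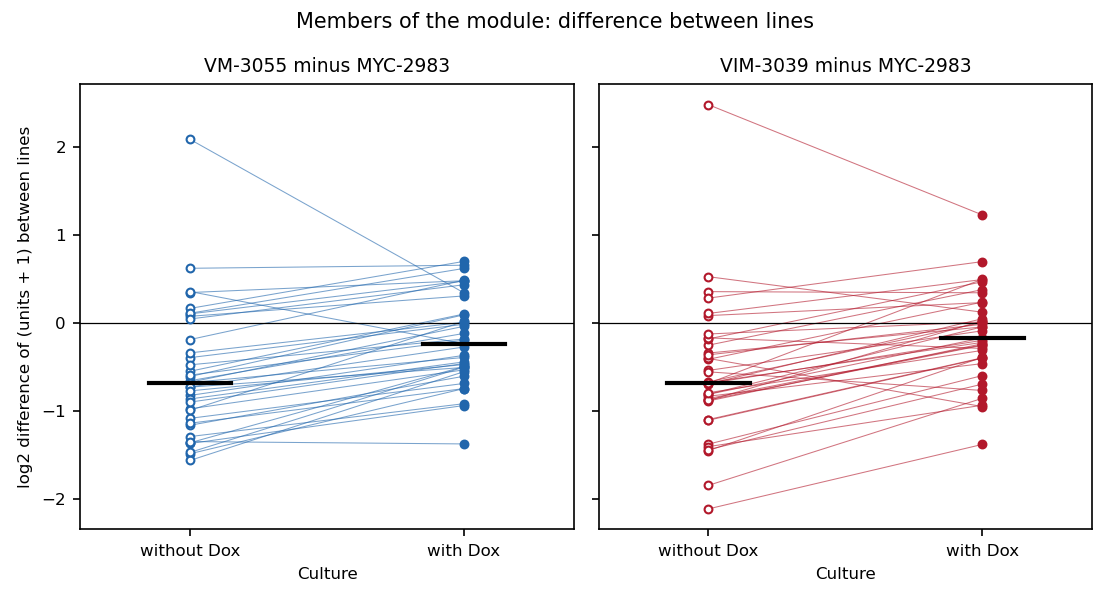
Difference from MYC-2983 cells (log2 units, y axis) of each of the 37 genes in the VM and VIM lines, first without and then with Dox; each point is a gene and the black bar is the median. The medians are -0.68 and -0.68 without Dox and -0.24 and -0.17 with Dox.

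The primary tumours were compared with normal kidney, each genotype against the same 5 kidneys, so the 3 comparisons share their controls. Tumour, genotype, Dox and strain cannot be told apart in them. In MYC tumours 25 of the 37 genes passed as higher and 1 as lower (background 19.4% and 17.7% of 16491 genes). In VM tumours 24 passed as higher and 1 as lower (background 17.3% and 22.5% of 16521 genes), and in VIM tumours 24 as higher and 0 as lower (background 18.9% and 20.7% of 16569 genes). The median difference was 1.48, 1.74 and 1.87, and the median of all genes tested was 0.12, -0.05 and 0.01. With the 2 libraries of mouse 2983 averaged, the tumour values lay wholly above the kidneys for 29, 28 and 28 genes (background 32.5%, 24.3% and 24%). They lay wholly below them for 2, 2 and 0 (background 26.3%, 26.6% and 24.4%). Shmt1, Tyms and Tk1 lay above the kidneys in MYC tumours only after that averaging. The overlaps given gene by gene below are by library.

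The tissues differ in their cells as well, and in bulk tissue fewer cells of a type and less RNA per cell cannot be told apart. The 6 listed proximal tubule markers summed to 197775 to 232446 units in the kidneys and 1773 to 10506 in the tumours. The 7 leukocyte markers summed to 1277 to 2245 in the kidneys, 3265 to 15236 in MYC, 2186 to 7747 in VM and 7372 to 14083 in VIM tumours. The 7 fibroblast markers summed to 1158 to 4240 in the kidneys and from 602 to 12369 in the tumours, and the 5 endothelial markers to 3253 to 5579 in the kidneys and 192 to 1949 in the tumours. The 10 genes of cycling cells summed to 821 to 976 in the kidneys and 9394 to 28134 in the tumours, and each of the 10 passed as higher in each genotype. The part of these cell differences in the enzyme values was not tested.

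**Figure D4:**
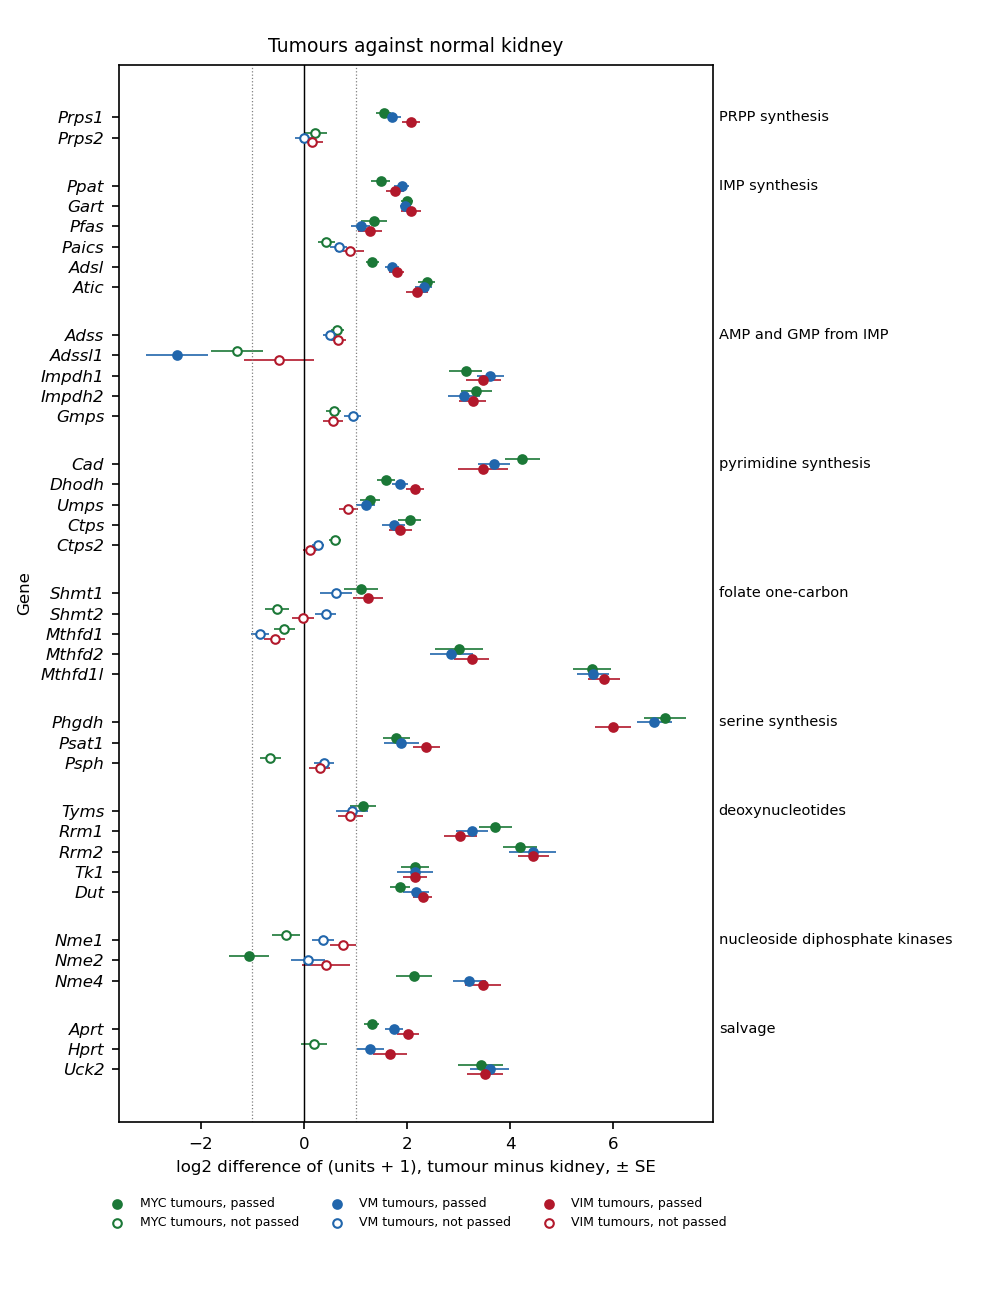
Difference of MYC, VM and VIM tumours from normal kidney for the 37 genes (log2 units, x axis), grouped by role. Bars are SE, with n = 5 kidneys, 3 VM tumours, 3 VIM tumours and 2 MYC animals, the 2 libraries of mouse 2983 being averaged. Filled points passed the test, dotted lines mark 1 and -1, and Phgdh lies furthest right at 7.0, 6.79 and 5.99.

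Serine synthesis held the largest difference of the 37 genes. Phgdh measured 48.4, 48.2, 22.8, 27.7 and 65.8 units in the kidneys, 5061, 6134 and 4493 in MYC tumours, 5015, 3643 and 4974 in VM tumours and 2817, 2148 and 2856 in VIM tumours. Each tumour exceeded each kidney, and Phgdh was 128-fold, 111-fold and 63.7-fold higher in MYC, VM and VIM tumours, or 7.0 ± 0.41, 6.79 ± 0.34 and 5.99 ± 0.35 on the log2 scale (largest adjusted p 1.13e-05). Psat1 measured 867, 709, 613, 622 and 398 units in the kidneys, 2008, 1694 and 2942 in MYC tumours, 1533, 1887 and 4217 in VM tumours and 2670.4, 2873 and 4367 in VIM tumours. Psat1 was also above the kidneys in each tumour, by 1.79 ± 0.27, 1.88 ± 0.34 and 2.37 ± 0.26 (largest adjusted p 0.000985). Psph, the last enzyme of the route, gave -0.66 ± 0.2, 0.38 ± 0.19 and 0.30 ± 0.2 and did not pass. Of the 8 ATF4 genes, 3, 4 and 4 passed as higher (background 19.4%, 17.3% and 18.9%) and 0, 1 and 1 as lower (background 17.7%, 22.5% and 20.7%).

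The folate enzymes split by gene. Mthfd1l was higher by 5.59 ± 0.37, 5.6 ± 0.3 and 5.81 ± 0.31 and Mthfd2 by 3.01 ± 0.46, 2.86 ± 0.41 and 3.25 ± 0.34, both without overlap with the kidneys. Shmt1 measured 806, 1016, 977, 896 and 2073 units in the kidneys, 2459.9, 2474 and 1973 in MYC tumours, 1210.4, 1748 and 2184 in VM tumours and 2198, 2957 and 2579 in VIM tumours. MYC and VM tumours overlapped the kidneys through kidney replicate 5, a KT kidney that measured the highest, while VIM tumours did not. Shmt1 differed by 1.11 ± 0.33 (adjusted p 0.0226), 0.62 ± 0.31 (adjusted p 0.113) and 1.24 ± 0.29 (adjusted p 0.00494). The MYC call was lost under TMM scaling (0.98), with no filter and against the KT kidneys alone (0.92). It was also lost without MYC tumour replicate 1 or without mouse 2983, each of which left 1 MYC animal. Shmt2 measured 5131, 5836, 5531, 6042 and 3696 units in the kidneys, 2959, 4861 and 3867 in MYC tumours, 7803, 5306 and 8000.0 in VM tumours and 4684, 4343 and 6634 in VIM tumours. All 3 tumour groups overlapped the kidneys for Shmt2, with differences of -0.53 ± 0.24, 0.42 ± 0.21 and -0.01 ± 0.21. Mthfd1 gave -0.38 ± 0.2, -0.85 ± 0.17 and -0.56 ± 0.2 and did not pass in a genotype.

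For PRPP and IMP synthesis, 6 of 8 genes passed as higher in each genotype, and Prps2 and Paics did not. Prps1 measured 759.5, 658, 679, 550.5 and 648 units in the kidneys, 1849.8, 1887 and 2089 in MYC tumours, 1824, 1923 and 2800.2 in VM tumours and 2736, 2261 and 3424 in VIM tumours. Prps2 measured 1363, 1739, 1665, 1655 and 2540.2 units in the kidneys, 1931, 2052 and 2251 in MYC tumours, 1877, 1748 and 1676 in VM tumours and 1593, 2379.7 and 1931 in VIM tumours. Prps1 was above the kidneys in each tumour, by 1.55 ± 0.15, 1.71 ± 0.17 and 2.08 ± 0.17 (largest adjusted p 9.87e-05), and Prps2 overlapped them, at 0.22 ± 0.22, 0.01 ± 0.18 and 0.15 ± 0.21. Gart measured 779, 812, 842, 834 and 775 units in the kidneys, 3049, 3702 and 3199 in MYC tumours, 2864, 3370.1 and 3250.3 in VM tumours and 3298, 4808 and 2489 in VIM tumours. Pfas measured 413, 455, 454, 518 and 660.3 units in the kidneys, 956, 1813 and 1507 in MYC tumours, 887, 1221 and 1088 in VM tumours and 1136, 1701 and 896 in VIM tumours. Gart exceeded the kidneys by 2.0 ± 0.12, 1.96 ± 0.11 and 2.07 ± 0.2 and Pfas by 1.35 ± 0.25, 1.1 ± 0.18 and 1.28 ± 0.23, neither overlapping. Pfas fell below the size threshold in MYC tumours without mouse 2983 (0.953), which left 1 MYC animal. In VM tumours Pfas did so without replicate 2 (0.992) or against the KT kidneys alone (0.97). Atic differed by 2.38 ± 0.17, 2.32 ± 0.17 and 2.19 ± 0.21, Adsl by 1.33 ± 0.12, 1.71 ± 0.13 and 1.8 ± 0.15 and Ppat by 1.48 ± 0.18, 1.9 ± 0.15 and 1.77 ± 0.17, and Paics gave 0.44 ± 0.17, 0.67 ± 0.17 and 0.89 ± 0.27.

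Both IMP dehydrogenases were far above the kidney. Impdh2 measured 34.6, 46.7, 29.5, 30.9 and 32.9 units in the kidneys, 339.6, 383 and 377 in MYC tumours, 250.3, 414 and 269 in VM tumours and 352, 343 and 327 in VIM tumours. Impdh2 was 10.2-fold, 8.58-fold and 9.64-fold higher, with no overlap (3.34 ± 0.31, 3.1 ± 0.3 and 3.27 ± 0.27; largest adjusted p 8.73e-05), and Impdh1 differed by 3.13 ± 0.32, 3.61 ± 0.26 and 3.48 ± 0.34. Adssl1 measured 60.6, 77.4, 58.9, 70.0 and 177 units in the kidneys, 23.3, 55.6 and 33.9 in MYC tumours, 41.3, 8.25 and 7.4 in VM tumours and 109, 114 and 14.7 in VIM tumours. Adssl1 lay below the kidneys in MYC and VM tumours and overlapped them in VIM tumours, and its VM difference of -2.46 ± 0.61 passed (adjusted p 0.00646), though not against the B6 kidneys alone (-2.03). Gmps gave 0.57 ± 0.15, 0.94 ± 0.16 and 0.56 ± 0.2 and Adss 0.64 ± 0.12, 0.51 ± 0.13 and 0.67 ± 0.14, neither past the size threshold.

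In pyrimidine synthesis, Cad stood furthest from the kidney. Cad measured 93.4, 108, 135, 109 and 220.1 units in the kidneys, 2027, 3109.6 and 2610.2 in MYC tumours, 1095, 1889.7 and 2128 in VM tumours and 1394, 3232 and 631 in VIM tumours. No tumour overlapped a kidney, and Cad was 18.8-fold, 12.8-fold and 11.1-fold higher (4.24 ± 0.33, 3.68 ± 0.31 and 3.47 ± 0.48; largest adjusted p 0.000232). VIM tumours spread over the widest range. Dhodh measured 313, 251, 307, 280.1 and 248 units in the kidneys, 919.8, 832 and 701 in MYC tumours, 875, 1077 and 1113 in VM tumours and 1173, 1071 and 1505 in VIM tumours. Umps measured 619, 648, 709.5, 607 and 801 units in the kidneys, 2015, 1318 and 1326 in MYC tumours, 1322, 1303 and 2147 in VM tumours and 1414, 1429.8 and 905 in VIM tumours. Dhodh differed by 1.59 ± 0.17, 1.86 ± 0.16 and 2.15 ± 0.17 and passed in each genotype, and Umps by 1.28 ± 0.19, 1.2 ± 0.19 and 0.86 ± 0.19, passing in MYC and VM tumours, both without overlap. Umps fell under the size threshold in VM tumours without replicate 3 (0.962). In MYC tumours Umps did so without replicate 1 (0.972), which left 1 MYC animal. Ctps, which had not risen with Dox in MYC-2983 cells, differed by 2.05 ± 0.23, 1.74 ± 0.21 and 1.87 ± 0.22 and passed in each genotype, and Ctps2 gave 0.60 ± 0.12, 0.27 ± 0.12 and 0.11 ± 0.13.

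Of the 5 deoxynucleotide genes, 5, 4 and 4 passed as higher in MYC, VM and VIM tumours. Rrm2 measured 55.4, 111, 65.6, 92.8 and 116 units in the kidneys, 1414, 542 and 2948 in MYC tumours, 807, 2045 and 3853 in VM tumours and 1746, 2569 and 1463 in VIM tumours. Rrm2 exceeded the kidneys by 4.2 ± 0.33, 4.43 ± 0.46 and 4.45 ± 0.3 and Rrm1 by 3.71 ± 0.32, 3.26 ± 0.31 and 3.03 ± 0.32, with no overlap. Dut measured 322, 324, 249, 287 and 396 units in the kidneys, 1150.2, 789 and 1434 in MYC tumours, 1013, 1249 and 2236 in VM tumours and 1546, 1377 and 1733 in VIM tumours. Dut did so as well, by 1.85 ± 0.19, 2.18 ± 0.26 and 2.31 ± 0.18 (largest adjusted p 0.000147). Tk1 differed by 2.15 ± 0.27, 2.15 ± 0.35 and 2.15 ± 0.23, its MYC tumours overlapping the kidneys. Tyms measured 235, 334, 253, 221 and 406 units in the kidneys, 654, 367 and 825 in MYC tumours, 345, 528 and 871 in VM tumours and 444, 533 and 622 in VIM tumours. MYC and VM tumours overlapped the kidneys for Tyms, and the differences were 1.14 ± 0.26, 0.94 ± 0.31 and 0.90 ± 0.24, of which that in MYC tumours passed (adjusted p 0.00637). Without MYC tumour replicate 3 it was 0.794 and no longer passed, and without kidney replicate 5 Tyms passed in VM (1.07) and VIM tumours (1.03) also.

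Among the nucleoside diphosphate kinases, Nme4 rose. Nme4 measured 176, 108, 170.0, 76.5 and 99.9 units in the kidneys, 504, 506 and 617 in MYC tumours, 1563, 871 and 1025 in VM tumours and 1427, 846 and 2006 in VIM tumours. Each tumour lay above the kidneys, by 2.14 ± 0.35, 3.21 ± 0.32 and 3.47 ± 0.35 (largest adjusted p 0.00137). Nme1 measured 4519, 3264, 3830.0, 3124 and 2254 units in the kidneys, 3149, 1287 and 2951 in MYC tumours, 4621, 3994 and 4256 in VM tumours and 6655, 4157 and 6311 in VIM tumours. Nme2 measured 13365, 7747, 10881, 7132 and 4522 units in the kidneys, 4622, 2261 and 4321 in MYC tumours, 11201, 6384 and 8990.1 in VM tumours and 10266, 5528 and 23209 in VIM tumours. Both overlapped the kidneys in each genotype, with differences of -0.36 ± 0.27, 0.37 ± 0.21 and 0.76 ± 0.25 for Nme1 and -1.07 ± 0.39, 0.08 ± 0.34 and 0.42 ± 0.47 for Nme2. Nme2 in MYC tumours reached an adjusted p of 0.0477, and the call was lost in 7 of the 9 repeats that left out a library or an animal (range -1.34 to -0.82).

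Salvage genes closed the list. Aprt measured 1176, 1039, 1091, 1018 and 929.8 units in the kidneys, 2309.7, 2238 and 3648 in MYC tumours, 4465, 2614 and 3729 in VM tumours and 4674, 2849.6 and 5799 in VIM tumours. Uck2 measured 64, 137, 83, 74.9 and 187 units in the kidneys, 878, 1512 and 1205 in MYC tumours, 818, 1458 and 1568 in VM tumours and 1039.5, 1411 and 1056 in VIM tumours. Neither overlapped the kidneys, Aprt differing by 1.31 ± 0.15, 1.75 ± 0.17 and 2.02 ± 0.22 and Uck2 by 3.43 ± 0.43, 3.6 ± 0.38 and 3.51 ± 0.35. Hprt measured 3817, 2514, 3013, 2505 and 1851 units in the kidneys, 2864, 2457 and 3965 in MYC tumours, 6751, 4612 and 8808 in VM tumours and 8957, 4845 and 14045 in VIM tumours. Hprt overlapped the kidneys in MYC tumours and lay above them in VM and VIM tumours, with differences of 0.19 ± 0.25 (adjusted p 0.561), 1.29 ± 0.26 (adjusted p 0.00207) and 1.67 ± 0.34 (adjusted p 0.00225). Against the B6 kidneys alone the VM and VIM differences were 0.94 and 1.32 and did not pass.

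Between tumour genotypes, 0 of the 37 genes passed in each of the 3 comparisons by limma. All genes gave 0 calls of 16085 between VM and MYC (background 0%), 1 of 16246 between VIM and MYC (background 0.00616%) and 40 of 16096 between VIM and VM tumours (background 0.249%). Of the 37 genes, 6, 6 and 1 had an unadjusted p under 0.05, for which the share over all genes was not counted. The smallest limma adjusted p of the 37 was 0.248, 0.25 and 0.265 in the same order. The differences of the 37 genes ranged from -1.17 to 1.15 for VM against MYC, from -1.0 to 1.49 for VIM against MYC and from -0.80 to 1.97 for VIM against VM tumours. With the 4 tissue groups in 1 fit, Psph passed between VM and MYC tumours (1.04) and Nme1 between VIM and MYC tumours (1.11).

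**Figure D5:**
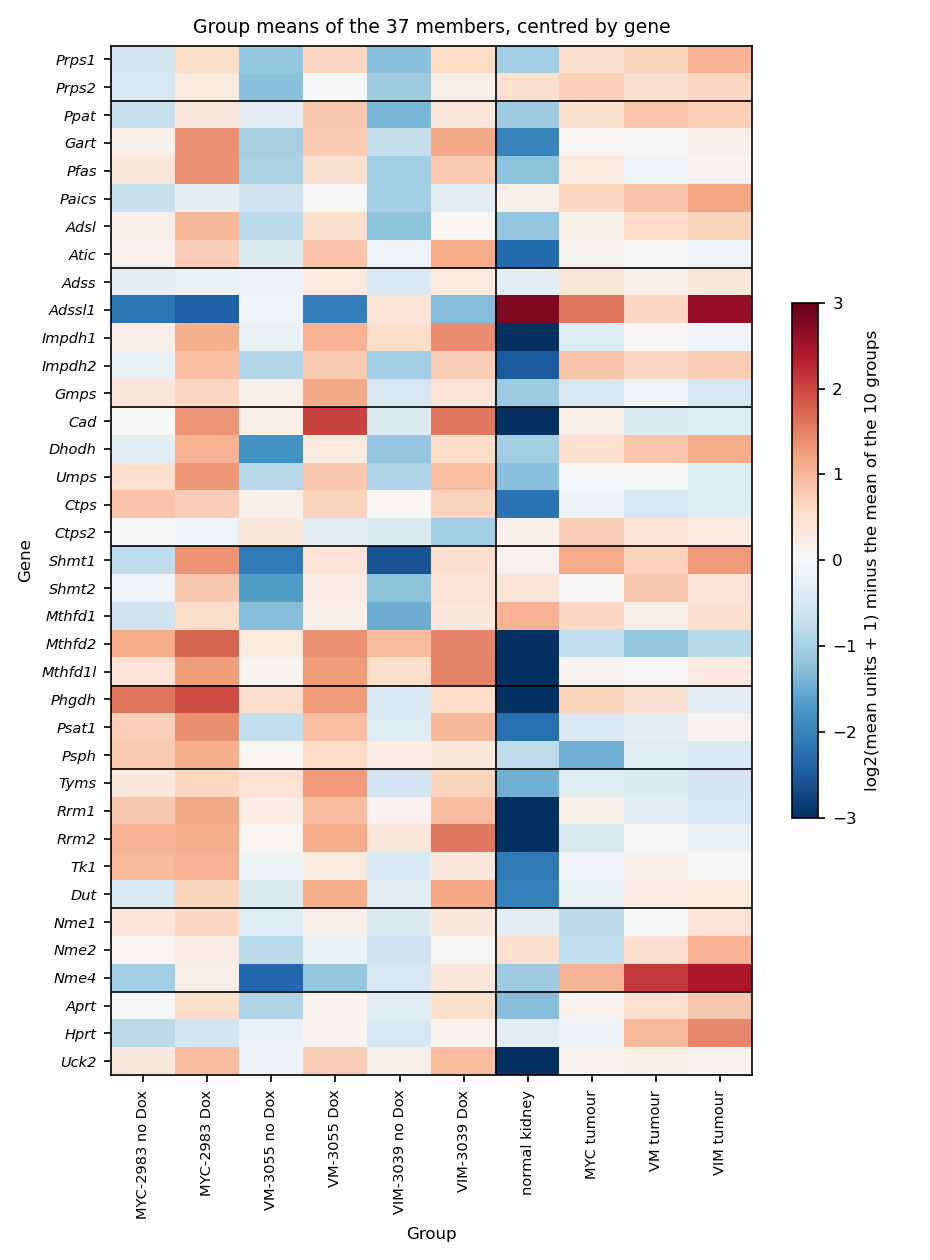
Mean level of each of the 37 genes (rows, by role) in the 10 groups (columns), as log2(mean units + 1) minus the mean of that gene over the groups; colours end at 3 and -3. Phgdh, Mthfd1l, Rrm2 and Cad are lowest in normal kidney, and Shmt1 is lowest in the VM and VIM lines without Dox.

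Side by side, the cell and tissue comparisons did not rank the genes alike. Shmt1 had the largest Dox difference in each line (2.11, 2.54 and 3.1) and tumour differences of 1.11, 0.62 and 1.24. Mthfd1 passed in the 3 lines (1.17, 1.45 and 1.79) and in no tumour genotype (-0.38, -0.85 and -0.56). Phgdh had the largest tumour differences (7.0, 6.79 and 5.99) and Dox differences of 0.36, 0.76 and 1.1. Prps1, Ppat, Gart, Pfas, Impdh2, Cad, Dhodh and Dut passed as higher in each line and also against the shared kidneys in each tumour genotype. The MYC-2983 line and 2 MYC tumour libraries come from 1 mouse, and the title of VM tumour replicate 2 carries the number in the name of the VM-3055 line, so the cell and tumour comparisons are not independent.

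The other genes of these pathways were taken from a list of 79 that supply, use, salvage or degrade the same metabolites. With Dox, 7 of 74 tested passed as higher and 7 as lower in MYC-2983, 12 and 14 of 73 in VM-3055, and 11 and 9 of 71 in VIM-3039 cells, against the backgrounds given above. Slc19a1, the reduced folate carrier, had the largest rise in VM-3055 (2.19 ± 0.051) and VIM-3039 cells (2.23 ± 0.041). Dctd, the dCMP deaminase that feeds thymidylate synthesis, followed at 2.08 ± 0.065 and 2.14 ± 0.063. Slc1a5, a glutamine and neutral amino acid transporter, came next in VM-3055 (1.99 ± 0.053) and Ahcy, which clears S-adenosylhomocysteine, in VIM-3039 cells (2.13 ± 0.057). In MYC-2983 cells the glycine decarboxylase Gldc differed by 4.08 ± 0.17, the glycine methyltransferase Gnmt by 3.21 ± 0.27 and the guanine deaminase Gda by 1.99 ± 0.28, each from a level of few reads without Dox. The largest falls were in Xdh (-2.47 ± 0.2), Cmpk2 (-2.14 ± 0.14) and Cda (-1.52 ± 0.3) in MYC-2983, in Cda (-2.61 ± 0.32), Ak1 (-2.59 ± 0.34) and Ampd3 (-2.55 ± 0.16) in VM-3055, and in Xdh (-2.75 ± 0.42), Sdsl (-1.97 ± 0.35) and Dpyd (-1.62 ± 0.38) in VIM-3039 cells. Xdh, Cda, Ampd3 and Dpyd degrade purines or pyrimidines. Of the 22 listed genes of nucleotide breakdown, 1, 2 and 2 passed as higher (background 4.49%, 5.92% and 7.67%) and 4, 6 and 4 as lower (background 15%, 18.9% and 16.6%).

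In MYC tumours, 7 of the 76 other genes tested passed as higher and 31 as lower (background 19.4% and 17.7%). The counts were 11 and 26 of 77 in VM tumours (background 17.3% and 22.5%) and 13 and 22 of 78 in VIM tumours (background 18.9% and 20.7%). Dctd was among the largest rises in each, at 5.3 ± 0.34, 4.73 ± 0.42 and 5.31 ± 0.29. Slc1a5 (2.77 ± 0.3) and the AMP deaminase Ampd2 (1.77 ± 0.2) followed in MYC tumours, and the mitochondrial formyl folate dehydrogenase Aldh1l2 in VM (4.83 ± 0.48) and VIM tumours (3.94 ± 0.5). The urate oxidase Uox was at 0 in the 5 kidneys and was present in VM and VIM tumours, so no fold is given. The largest falls included Dmgdh, a mitochondrial enzyme of choline-derived one-carbon units, which measured 3159 to 5156 units in the kidneys and 41.4 to 150.4 in VIM tumours, and at most 21.6 in MYC and 3.99 in VM tumours. Dpys, a pyrimidine-degrading enzyme, was at 0 in each MYC and VM tumour, against 228 to 454 units in the kidneys. Upp2, a uridine phosphorylase, and Bhmt, the betaine methyltransferase, were at 0 or at the floor in the tumours where they were named. The proximal tubule markers fell in the same tumours, as given above.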

How the data were processed

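Poly(A) RNA of 24 cell, 9 tumour and 5 kidney libraries was sequenced in pairs from a stranded kit. According to the labels and the study's methods, the authors aligned reads to mm9 with MapSplice, used Picard 1.64, SAMtools and UBU, counted reads per gene with RSEM on UCSC knownGene, and brought the upper quartile of every library to 1000. The deposited values are thus a normalized signal and not counts. In each library 94.1 to 95.9% of values under 20 reads were whole multiples of 1 read within 0.02, from which depth and the floor of 3 reads were estimated.

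Groups came from the labels. Log2(value + 1) was tested with limma 3.58.1 (R 4.3.3, trended variance, two-sided, Benjamini-Hochberg over all genes tested), so fold changes of low genes are understated. Genes above 0 in at least 4 cell or 2 tissue libraries entered. A gene passed at an adjusted p under 0.05 and a log2 difference over 1. The fits were checked on simulated data. The p-values measure spread between libraries, which in cells may be technical.

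The 37 genes and the gene lists were chosen with earlier results of these data known. Values in each library are given for the 2 genes of each role with the largest mean absolute Dox difference and for those that passed an interaction or passed in some tumour genotypes and not others. Other settings tried were a pseudocount of 0.1 or 10, dropping the filter or asking for 10 units on average, TMM and quantile scaling, joint fits, voom on recovered reads, a replicate block, B6 or KT kidneys alone, mouse 2983 as separate libraries, and each library left out. Voom replaced a count test because too few recovered reads were whole. Promoters were searched with Python 3.11.15, and figures drawn with matplotlib 3.10.9.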

Additional observations from a re-analysis of the deposited data

Results flagged for a closer look

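Libraries that stood apart from the others of their group were sought in 259 sets of 4 or 5 values, and 22 were found, where chance gives about 1 in 20. In VM-3055 cells with Dox, replicate 1 was high for Gart (5678 units, others 5339 to 5376), Pfas (1743, others 1557 to 1579), Dhodh (739, others 688 to 689) and Shmt2 (5165, others 4640.0 to 4655), and replicate 2 was low for Psat1 (5339, others 5913 to 5931). In VM-3055 cells without Dox, replicate 2 was high for Paics (4409.8, others 4086 to 4119), Adss (2677, others 2374 to 2375), Ctps (3442, others 3143 to 3171), Mthfd2 (1487, others 1390 to 1402) and Rrm2 (2437, others 2230 to 2257), and replicate 1 was high for Mthfd1l (951, others 914 to 919).

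In MYC-2983 cells without Dox, replicate 2 was low for Umps (2221, others 2335 to 2358) and Shmt2 (3548, others 3693 to 3710.0) and high for Psph (1115, others 1068 to 1072), and replicate 1 was high for Adss (2331, others 2253 to 2261). With Dox, MYC-2983 replicate 3 was low for Ctps (4599, others 4710 to 4731). In VIM-3039 cells, replicate 2 without Dox was high for Ppat (827, others 757 to 765), and with Dox replicate 4 was high for Mthfd1 (3257, others 3086 to 3113) and low for Hprt (3387, others 3789 to 3859), and replicate 3 was high for Mthfd2 (3278, others 3134 to 3152). In the kidneys, replicate 5 was high for Adssl1 (177, others 58.9 to 77.4) and Shmt1 (2073, others 806 to 1016).

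The Dox response differed between lines by the interaction test for Shmt2 (1.01), Rrm2 (1.01) and Adssl1 (-1.74) between VM-3055 and MYC-2983, and for Umps (1.06) and Rrm2 (1.18) between VIM-3039 and MYC-2983.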

How the results depend on the processing

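The counts of passing genes for the Dox response (11, 22 and 20 in MYC-2983, VM-3055 and VIM-3039) and for tumours against kidney (26, 25 and 24) stayed within 1.5 times under each alternative run. Of 10795 single-gene values under other settings, 65 gained and 48 lost a call and 0 that passed changed sign. Of those that did not pass, 417 moved by more than the spread between replicates and 221 changed sign. These totals include the line comparisons repeated in cells without Dox, which change the samples and not the processing. TMM gave 12, 26 and 24 for Dox and voom 11, 23 and 20. Among all genes TMM moved the split of higher and lower calls with Dox from 678 and 2264 to 899 and 1869 in MYC-2983, from 847 and 2707 to 1362 and 1999 in VM-3055, and from 1074 and 2322 to 1443 and 1873 in VIM-3039.

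For VM-3055 against MYC-2983 with Dox, 1 gene became 2 with quantile normalization and 11 in cells without Dox. For VIM-3039 against MYC-2983, 2 genes became 1 with a pseudocount of 10, 1 with a mean of at least 10 units, 1 with no filter and 9 without Dox. For VIM-3039 against VM-3055, 1 gene became 3 without Dox. With all 4 tissue groups in one fit, 1 gene passed between VM and MYC tumours (Psph, 1.04) and 1 between VIM and MYC tumours (Nme1, 1.11), where the separate fits had 0. The cause was not tested.

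Leaving out 1 library at a time gave 10 to 11, 22 to 23 and 20 genes for Dox in the 3 lines, 23 to 26, 24 to 26 and 24 to 26 for MYC, VM and VIM tumours against kidney, and 0 between tumours. The interaction counts were 1 to 4 for VM-3055 (1 without VM-3055 no-Dox replicate 4), 2 to 4 for VIM-3039 (4 without VIM-3039 Dox replicate 4 or no-Dox replicate 3) and 0 between these lines. Line differences with Dox gave 1 for VM-3055 against MYC-2983, 1 to 2 for VIM-3039 against MYC-2983 (1 without MYC-2983 Dox replicate 4) and 1 to 2 for VIM-3039 against VM-3055 (2 without VM-3055 Dox replicate 3). Samples numbered alike did not deviate together in the VM-3055 and VIM-3039 lines (correlations across genes between -0.31 and 0.21), so the numbers were not treated as pairs. With the replicate block 22 and 20 genes passed for Dox, 0 for the interaction and 1 between the lines.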
